A study of Mus musculus with 6 samples.

Results

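Genes of fatty acid oxidation, of ketone body metabolism and of the PPAR response were followed in cultured retinal pigment epithelium (RPE) of the mouse. This epithelium lies behind the photoreceptors and takes up the outer segment tips that they shed. The 37 genes were chosen by symbol for their function, with earlier results of these data known, and 36 of the 12556 genes in the table were among them. Acadm was not analysed here. Both groups were wild-type C57BL/6J cells taken from mice 10 to 12 days old and grown as primary culture for 5 to 6 days on permeable supports. The 3 POS-challenged libraries came from cultures given photoreceptor outer segment (POS) membranes of the mouse for 1.5 h, at a ratio near 10 POS to each RPE cell, and then washed. The 3 unchallenged libraries, titled Veh in the labels, came from cultures that received no POS. They are described as biological replicates, and p-values measure the spread between these cultures, since the labels do not say whether they were separate litters or days.

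Outer segments are rich in membrane lipid, and RPE cells that have engulfed them can oxidise the fatty acids and release ketone bodies towards the photoreceptors. Long-chain fatty acids are activated to acyl-CoA, carried into mitochondria through the carnitine shuttle and shortened in cycles of beta-oxidation, while peroxisomes take the longest and branched chains. The PPARs are nuclear receptors that bind fatty acids, pair with RXR and switch on many genes of this pathway, which makes transcripts such as Pdk4, Angptl4 and Plin2 common readouts of fatty acid load.

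The libraries held 24869273 to 30420028 reads over the genes of the table. Of 14 RPE marker genes 13 were measured, and their summed level was 31162 to 50891 normalized counts in POS-challenged and 32970.0 to 45042 in unchallenged libraries. Rpe65, the isomerase of the visual cycle and a defining marker, was low, at 121 to 207 normalized counts in POS-challenged and 103 to 167 in unchallenged libraries. Both photoreceptor markers measured, Sag and Cdhr1, were higher after the challenge, with a summed level of 926 to 1538 normalized counts in POS-challenged and 109 to 153 in unchallenged libraries. They were 2 of 16 listed, the others were not analysed here, and the part of photoreceptor RNA in the values below was not tested. Choroid fibroblast markers, 5 of 5 measured, summed to 46323 to 59978 in POS-challenged and 52333 to 71488 in unchallenged libraries. Müller glia markers (3 of 6) summed to 14714 to 21298 and 15371 to 19476 in that order of groups, macrophage markers (7 of 9) to 998 to 1371 and 1176 to 1361, and endothelial markers (2 of 5) to 138 to 178 and 107 to 185, while none of 5 adipocyte markers was among the genes measured. Some libraries stood apart from the rest. Interferon-stimulated genes had a mean log2 level of 5.57, 6.83 and 8.85 in POS-challenged replicates 1, 2 and 3, and of 11.1, 6.24 and 11.64 in unchallenged replicates 1, 2 and 3. The 10 most abundant genes took 8.23% of reads in POS-challenged replicate 3 and at least 10.7% in each of the other 5 libraries. In such bulk samples, fewer cells of a type and less RNA per cell cannot be told apart.

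No member passed the threshold in either direction. At an adjusted p under 0.05 in limma, 0 of 36 were called, against 0.0956% of all genes (0.0637% higher and 0.0319% lower), and the authors' deposited table called 0 of the 35 members to which it gave an adjusted p, against 2.55% of all genes (0.871% higher and 1.68% lower). An unadjusted limma p under 0.05 was found for 4 members, 11.1% of them, against 11.5% of all genes. Cpt2 and Acads had higher values in POS-challenged cells (2 of 36, against 4.87% of all genes), and Acaa1a and Angptl4 had lower ones (2 of 36, against 6.58%). Log2 fold changes, POS-challenged over unchallenged on the log2(normalized count + 1) scale, were positive for 23 members and negative for 13, with a median of 0.07 and a range from -0.64 to 0.61. Over all genes 51.7% were positive and the median was 0.007. The smallest adjusted p of any member was 0.284 in limma.

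**Figure D1:**
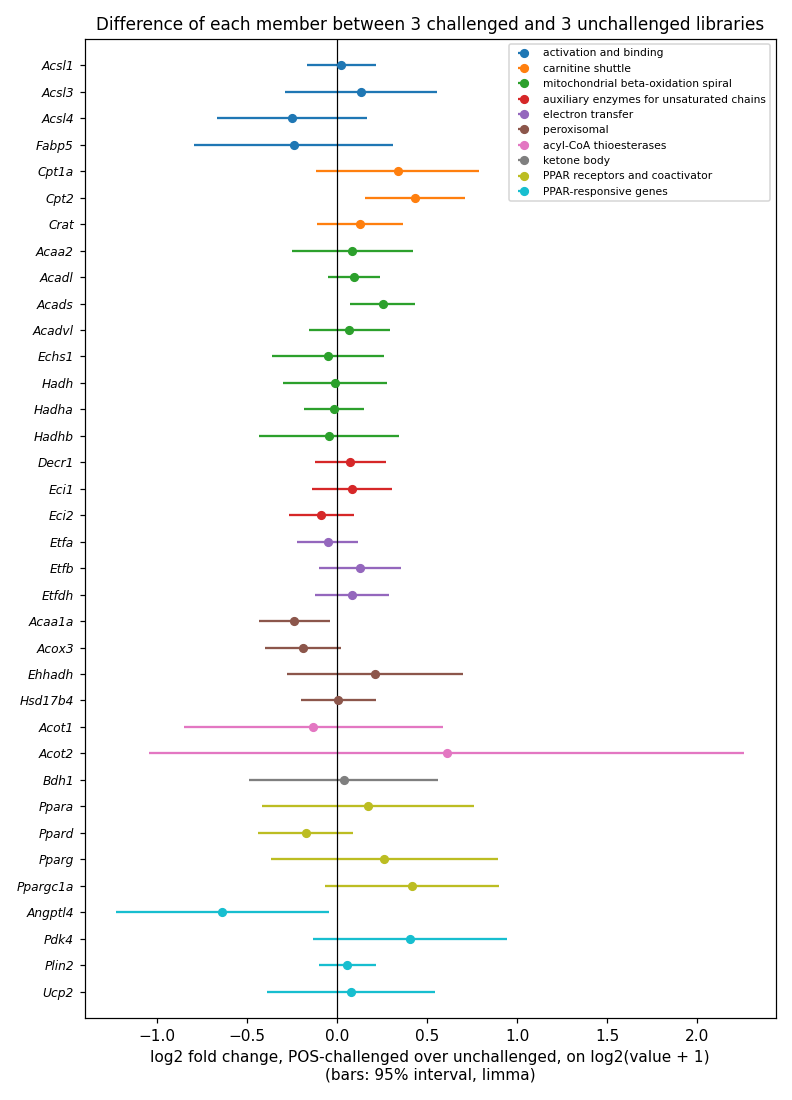
Log2 fold change of each of the 36 members (points) with its 95% interval from limma (bars), POS-challenged over unchallenged, 3 libraries per group, coloured by role. The intervals of Cpt2 and Acads lie above 0 and those of Acaa1a and Angptl4 below it before adjustment, the interval of Acot2 is the widest, and no member passed after adjustment.

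Levels can be compared between genes only per length, as normalized reads per kb of the principal coding transcript. On that scale Plin2, whose product coats lipid droplets, was the most abundant member, with 5333 in POS-challenged and 5131 in unchallenged cells. Etfb, a subunit of the flavoprotein that passes electrons from acyl-CoA dehydrogenases to the respiratory chain, came next at 1493 in POS-challenged and 1368 in unchallenged cells, followed by Acsl3 at 1346 and 1224 in the same order. At the low end were Ehhadh at 21.6 in POS-challenged and 19.0 in unchallenged cells, Bdh1 at 19.9 and 19.0, Ppara at 11.3 and 9.83, and Acot1 at 10.5 and 11.3, each with POS-challenged cells given before unchallenged ones. The libraries of neighbouring genes overlapped over most of this order, while Plin2 stood above all others in every library. The spans of Echs1, Etfb, Etfdh, Crat and Acsl3 overlap another protein-coding gene, and those of Cpt1a, Plin2, Bdh1, Acox3 and some others a non-coding gene or pseudogene. Use of strand is not stated, so reads from the shared stretches cannot be told apart.

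**Figure D2:**
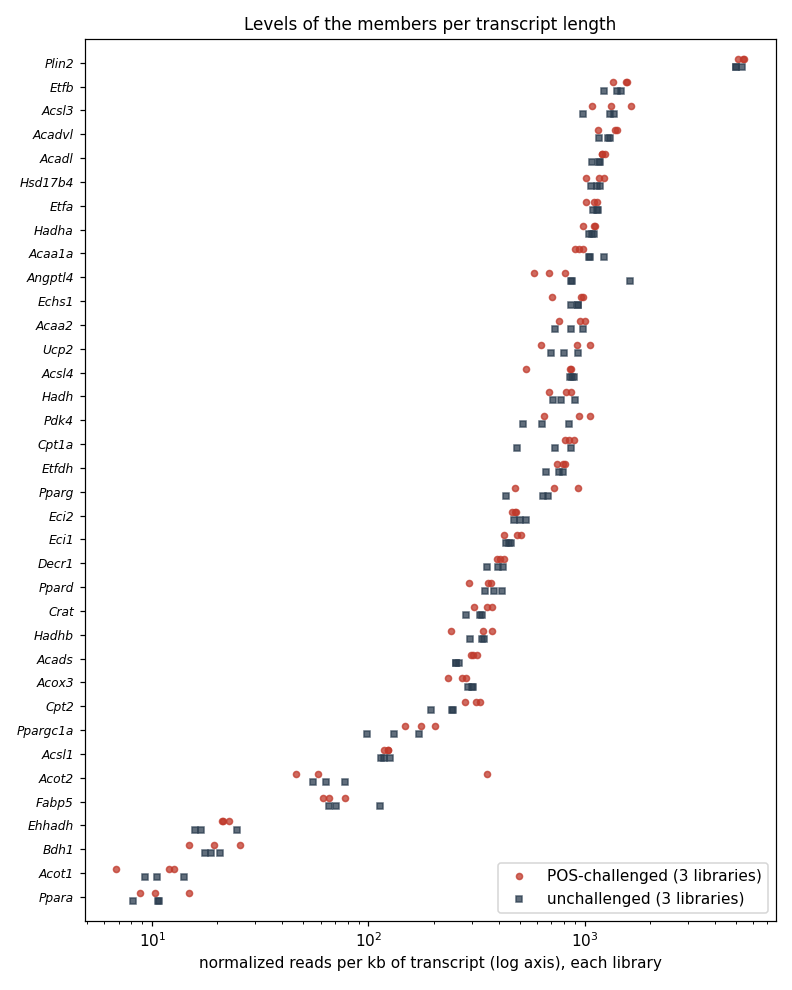
Normalized reads per kb of transcript on a log axis for the 36 members, with 1 point per library (circles, POS-challenged; squares, unchallenged). Plin2 lies highest, the genes of the beta-oxidation cycle lie in the upper and middle part, and Ehhadh, Bdh1, Acot1 and Ppara lie lowest in both groups.

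Fatty acid activation and binding showed no common direction. Acsl3, an acyl-CoA synthetase of the endoplasmic reticulum and lipid droplets, had normalized counts of 6465, 5235 and 4251 in the POS-challenged libraries, always in the order of replicates 1, 2 and 3, against 3893, 5189 and 5417 in the unchallenged libraries. The groups overlapped widely (log2 fold change 0.13 ± 0.18 SE, limma adjusted p = 0.798). Acsl4, the synthetase that prefers arachidonic acid, had 4525, 4549 and 2833 in POS-challenged libraries, against 4705, 4532 and 4618 in unchallenged ones. Its low value lay in POS-challenged replicate 3, and the log2 fold change of -0.25 became -0.03 without that library. Fabp5, a fatty acid binding protein that delivers ligand to PPARs, had 77.1, 61.1 and 64.5 in POS-challenged and 112, 65.0 and 69.9 in unchallenged libraries (log2 fold change -0.24, limma adjusted p = 0.711). Here unchallenged replicate 1 was high, and the difference was -0.003 without it. Acsl1, the main synthetase for oxidation in muscle and liver, averaged 473 ± 11.1 normalized counts in POS-challenged and 466 ± 21.2 in unchallenged cells (SD, n = 3 each).

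All 3 members of the carnitine shuttle had positive fold changes, and none passed the test. Positive fold changes were found for 51.7% of all genes. Slc25a20 and Cpt1c, related genes outside the members, had log2 fold changes of 0.02 and -0.02 (limma adjusted p = 0.916 and 0.926). Cpt2, the inner-membrane carnitine palmitoyltransferase that reforms acyl-CoA in the matrix, had 777, 662 and 747 normalized counts in POS-challenged libraries, against 464, 583 and 579 in unchallenged ones. Every POS-challenged library lay above every unchallenged one, with a log2 fold change of 0.43 ± 0.12 (SE, 95% interval 0.15 to 0.71, limma adjusted p = 0.284). Leaving out each library in turn gave 0.32 to 0.50, and the authors' deposited table gave an adjusted p of 0.069. Cpt1a, the outer-membrane enzyme that commits fatty acids to mitochondrial oxidation and a PPAR target in liver, had 3868, 3649 and 3510 in POS-challenged libraries, against 2099, 3719 and 3155 in unchallenged ones. The POS-challenged values were close together and the unchallenged ones were not, with unchallenged replicate 2 inside the POS-challenged range. Its log2 fold change of 0.34 (limma adjusted p = 0.534) became 0.10 without unchallenged replicate 1. Crat, which moves acetyl groups between CoA and carnitine, averaged 1461 ± 139 in POS-challenged and 1338 ± 120 in unchallenged cells (log2 fold change 0.13). Cpt2 (Entrez Gene 12896) lies on chromosome 4 from 107903982 to 107923589 and Cpt1a (12894) on chromosome 19 from 3322326 to 3385735 of GRCm38.p6.

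The enzymes of the mitochondrial beta-oxidation cycle lay close to 0, with a median log2 fold change of 0.03 over the 8 measured, 4 of them positive. It was 0.12 with all 8 positive without POS-challenged replicate 3, and -0.03 with 3 positive without unchallenged replicate 1. Acads, the dehydrogenase for short chains, had closely grouped values, with 569, 556 and 593 normalized counts in POS-challenged and 475, 476 and 490 in unchallenged libraries. The groups did not overlap, and the difference was small (log2 fold change 0.25 ± 0.08 SE, 95% interval 0.07 to 0.43, limma adjusted p = 0.329). Its fold change ran from 0.23 to 0.27 when each library was left out in turn. Acadvl, the dehydrogenase for very long chains, had 3051, 2990 and 2510 in POS-challenged and 2519, 2849 and 2771 in unchallenged libraries (log2 fold change 0.07). Acadl, for long chains, averaged 2331 ± 44.0 in POS-challenged and 2187 ± 94.7 in unchallenged cells, again without overlap (log2 fold change 0.09, limma adjusted p = 0.587, and 0.06 without unchallenged replicate 1). Hadha and Hadhb, the subunits of the trifunctional protein, which carries out the later steps on long chains, had log2 fold changes of -0.02 (95% interval -0.19 to 0.15) and -0.04 (-0.43 to 0.34). Echs1, Hadh and Acaa2, the hydratase, dehydrogenase and thiolase for shorter chains, had log2 fold changes of -0.05, -0.01 and 0.08.

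Auxiliary enzymes for unsaturated chains and the electron transfer flavoprotein showed differences of the same small size. Eci2, an enoyl-CoA isomerase, had 828, 840 and 804 normalized counts in POS-challenged and 881, 931 and 820 in unchallenged libraries (log2 fold change -0.09). The log2 fold changes of Eci1, a second isomerase, and Decr1, the dienoyl-CoA reductase, were 0.08 and 0.07. Etfb had 1383, 1406 and 1211 in POS-challenged and 1098, 1311 and 1255 in unchallenged libraries, which overlapped (log2 fold change 0.13, limma adjusted p = 0.629). Its partner subunit Etfa and the ubiquinone oxidoreductase Etfdh had log2 fold changes of -0.05 and 0.08.

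In the peroxisomal group the values with no overlap were lower after the challenge. Acaa1a, the peroxisomal thiolase and a PPAR target in mouse liver, had 1659, 1738 and 1586 normalized counts in POS-challenged libraries, against 1851, 1872 and 2163 in unchallenged ones. That is a difference of -0.24 ± 0.08 on the log2 scale (SE, 95% interval -0.43 to -0.04, limma adjusted p = 0.376), and it ran from -0.278 to -0.165 when each library was left out in turn. Acaa1b, a closely related thiolase gene, was not analysed here, and reads shared between them could be assigned to either. Acox3, an oxidase of branched chains, averaged 1041 ± 106 in POS-challenged and 1184 ± 30.9 in unchallenged cells, also without overlap (log2 fold change -0.19, limma adjusted p = 0.471, and -0.11 without POS-challenged replicate 3). Hsd17b4, the multifunctional enzyme of peroxisomal oxidation, had 3119, 3299 and 2724 in POS-challenged and 2857, 3173 and 3052 in unchallenged libraries (log2 fold change 0.006, 95% interval -0.20 to 0.21). Ehhadh, the other bifunctional enzyme and a strong PPAR target in mouse liver, stood at 64.5 ± 2.68 in POS-challenged and 56.7 ± 14.6 in unchallenged cells.

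Over all 36 members, 3 had every POS-challenged library above every unchallenged one and 3 had every one below. These were 8.33% of the members each way, against 9.56% and 10.4% of all genes.

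The PPAR genes themselves were measured at very different levels. Pparg had 1654, 1281 and 840 normalized counts in POS-challenged libraries, against 762, 1192 and 1137 in unchallenged ones (log2 fold change 0.26 ± 0.27 SE, 95% interval -0.37 to 0.89, limma adjusted p = 0.727). The groups overlapped in part, with POS-challenged replicates 1 and 2 above every unchallenged library and unchallenged replicate 1 below every POS-challenged one. Ppard had 1205, 1165 and 954 in POS-challenged and 1359, 1139 and 1249 in unchallenged libraries (log2 fold change -0.18, limma adjusted p = 0.564, and -0.07 without POS-challenged replicate 3). Ppara, the main fatty acid receptor of liver, was near the lower end of what the table holds, at 29.9, 35.2 and 50.4 in POS-challenged and 27.9, 36.2 and 36.6 in unchallenged libraries (log2 fold change 0.17, 95% interval -0.42 to 0.76, and -0.04 without POS-challenged replicate 3). Ppargc1a, the coactivator PGC-1alpha that drives oxidative genes, had 1318, 1126 and 956 in POS-challenged libraries, against 637, 850 and 1102 in unchallenged ones. Its POS-challenged values were mostly higher, and the overlap came from POS-challenged replicate 3 and unchallenged replicate 3 (log2 fold change 0.42 ± 0.21 SE, limma adjusted p = 0.49), and leaving out unchallenged replicate 1 gave 0.22. Without POS-challenged replicate 3 the log2 fold change of Pparg was 0.53, and without unchallenged replicate 1 it was 0.06.

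The PPAR-responsive genes showed no common direction. Pdk4, the kinase that shuts off pyruvate dehydrogenase when fat is burned, had 3275, 3704 and 2254 normalized counts in POS-challenged libraries, against 1802, 2953 and 2223 in unchallenged ones. POS-challenged replicates 1 and 2 lay above every unchallenged library and replicate 3 lay among them, which gave 0.40 ± 0.23 on the log2 scale (SE, limma adjusted p = 0.532), 0.61 without POS-challenged replicate 3, and 0.23 when unchallenged replicate 1 was left out. Angptl4, a secreted inhibitor of lipoprotein lipase, had 1931, 2681 and 2268 in POS-challenged libraries, against 5365, 2846 and 2902 in unchallenged ones. All POS-challenged values lay below, by a log2 fold change of -0.64 ± 0.25 (SE, 95% interval -1.23 to -0.05, limma adjusted p = 0.411), and it was -0.34 without unchallenged replicate 1, the highest library. Plin2 had 10182, 9704 and 10320 in POS-challenged and 10146, 9448 and 9470 in unchallenged libraries, a log2 fold change of 0.06 with a 95% interval of -0.10 to 0.21. Ucp2, a mitochondrial carrier of the uncoupling protein family, had 3673, 4242 and 2502 in POS-challenged and 2781, 3717 and 3217 in unchallenged libraries (log2 fold change 0.08, limma adjusted p = 0.905). Angptl4 (57875) lies on chromosome 17 from 33774900 to 33781575 and Pdk4 (27273) on chromosome 6 from 5483351 to 5496278.

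**Figure D3:**
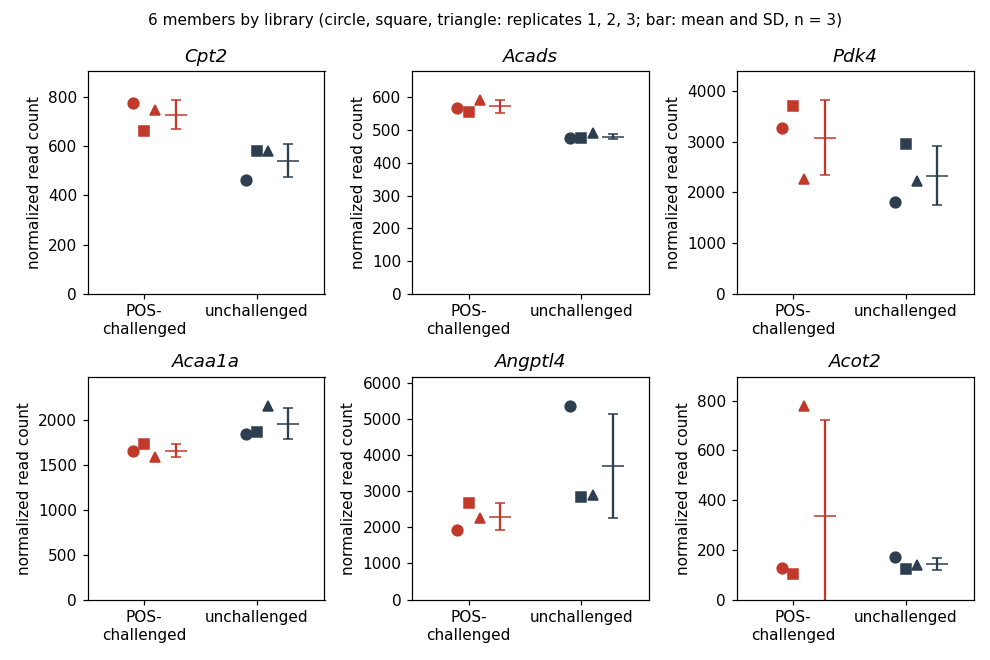
Normalized read counts of 6 members in each library, with POS-challenged on the left of each panel and unchallenged on the right; marker shapes are replicates and bars are the mean and SD of 3. Cpt2 and Acads do not overlap and are higher in POS-challenged cells, Acaa1a and Angptl4 do not overlap and are lower, and Acot2 is high in POS-challenged replicate 3 at 780, where the lower end of the SD bar is below 0 and not drawn.

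Promoters were available from RefSeq for 30 of the 36 members, in 34 windows from 250 bases before to 50 after a start site. The direct repeat bound by PPAR and RXR, a pair of AGGTCA copies in the same direction with 1 base between them, was searched on both strands and found in 0 of the 34, against 0.0396% of the 32851 promoters in the table. The looser form, a like pair of AGGNCA copies, which includes the first, was also found in 0, against 0.381% of all promoters. With shares this low, 0 of 34 windows cannot tell the members from other promoters. Sites outside these windows, or of other forms of the repeat, were not searched, so the members may still hold them. A single AGGTCA, or its reverse complement TGACCT, was added to the search later and occurred in 6 of the 34 windows (17.6%, against 16.3% of all promoters), in the genes Acadvl, Cpt1a, Echs1, Plin2 and Pparg. The windows of Cpt1a, the shuttle's entry enzyme, and Plin2, the most abundant member, are given because each holds this single site, written in capitals. The window of Cpt1a is chr19:3323051-3323350 on the plus strand, with the site beginning 94 bases before the start site of that window. This start site and the whole window lie inside the gene's span, which begins at 3322326, so the site is not upstream of the gene. The window of Plin2 is chr4:86670010-86670309 on the minus strand, with the site beginning 218 bases before its start site (GRCm38.p6).
Cpt1a: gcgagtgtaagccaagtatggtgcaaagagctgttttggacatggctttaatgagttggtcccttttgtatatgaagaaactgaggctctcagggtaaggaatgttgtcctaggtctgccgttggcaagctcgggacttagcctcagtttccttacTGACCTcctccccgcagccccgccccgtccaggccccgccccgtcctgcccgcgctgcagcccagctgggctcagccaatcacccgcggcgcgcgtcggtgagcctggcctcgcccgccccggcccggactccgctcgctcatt
Plin2: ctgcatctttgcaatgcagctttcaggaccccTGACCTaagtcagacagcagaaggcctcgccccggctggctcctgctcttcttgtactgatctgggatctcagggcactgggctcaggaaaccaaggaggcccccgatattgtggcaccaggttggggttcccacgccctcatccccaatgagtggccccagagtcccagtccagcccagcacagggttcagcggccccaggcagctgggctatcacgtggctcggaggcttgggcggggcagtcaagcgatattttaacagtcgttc

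The acyl-CoA thioesterase gene Acot2 had the widest spread of the members. Its product splits acyl-CoA to free fatty acid in the mitochondrial matrix, and the gene is induced in mouse liver by PPAR ligands and fasting. It had 129, 102 and 780 normalized counts in POS-challenged libraries, against 170, 121 and 140 in unchallenged ones. POS-challenged replicate 3 was 4.58 times the next highest library, POS-challenged replicate 1 lay within the unchallenged range and replicate 2 below it, and 4 of the 12556 genes (0.0319%, Acot2 among them) had a ratio at least as large. The difference of 0.61 ± 0.70 on the log2 scale (SE, limma adjusted p = 0.759) turned to -0.31 without that library. The authors' deposited table gives Acot2 a log2 fold change of 0.15 and no p. Of the 13 genes to which it gives no raw p, 7 were highest of the 6 libraries in POS-challenged replicate 3. The 13 include genes with an extreme value in 1 library, such as Cdsn at 687 in that replicate, 6.77 times the next highest. Their share is therefore not comparable with the 31.0% of all genes that were highest there. Why these 13 have no p was not tested. Among the 7 was Trib3, a stress-induced pseudokinase gene, with 503, 422 and 2995 in POS-challenged and 543, 465 and 694 in unchallenged libraries.

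The neighbouring gene Acot1, whose product is the cytosolic thioesterase, had 15.4, 28.7 and 27.2 normalized counts in POS-challenged and 23.9, 31.9 and 21.1 in unchallenged libraries, with no high value in POS-challenged replicate 3. Acot2 (171210) lies on chromosome 12 from 83987861 to 83993877 and Acot1 (26897) from 84009502 to 84017670, on the same strand. Their annotated coding sequences of 1359 and 1257 bases were 95.6% identical over 1236 aligned bases, with a longest shared run of 273 bases, and 40.2% of the 50-base stretches of the Acot2 coding sequence also occur in that of Acot1. Reads from those stretches cannot be told apart, and how the counting treated them is not stated in the labels. The 60-base window in which the pair differs most is shown with its 13 differing bases in capitals, since reads covering it can be told apart within the pair. Other thioesterase genes were not compared over this window. The window spans coding bases 946 to 1005 of Acot2 and 823 to 882 of Acot1, from the GENCODE transcripts of GRCm38.
Acot2: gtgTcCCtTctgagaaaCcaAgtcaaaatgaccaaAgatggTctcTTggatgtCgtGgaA
Acot1: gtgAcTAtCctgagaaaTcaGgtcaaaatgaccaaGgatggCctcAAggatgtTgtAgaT
The RefSeq promoter window of Acot2, the gene high in 1 library, is chr12:83987611-83987910 on the plus strand of GRCm38.p6 and held neither form of the repeat nor the single site, so it is in lower case throughout.
Acot2 promoter: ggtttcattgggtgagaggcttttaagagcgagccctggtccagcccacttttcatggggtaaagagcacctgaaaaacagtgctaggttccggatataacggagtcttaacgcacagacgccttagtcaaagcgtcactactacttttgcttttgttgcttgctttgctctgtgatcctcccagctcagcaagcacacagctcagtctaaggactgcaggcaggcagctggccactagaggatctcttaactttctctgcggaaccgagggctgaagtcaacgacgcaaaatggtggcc

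Bdh1, the dehydrogenase that interconverts acetoacetate and beta-hydroxybutyrate, was the ketone body gene among the members. It had 79.8, 60.1 and 46.4 normalized counts in POS-challenged and 54.8, 58.6 and 64.3 in unchallenged libraries, with the unchallenged values inside the POS-challenged range (log2 fold change 0.04, 95% interval -0.49 to 0.56, limma adjusted p = 0.966). In a list of 14 other ketone body genes, 10 were measured and 0 passed, with a median log2 fold change of -0.04. Aacs, which uses acetoacetate for lipid synthesis, had the smallest p of this list (log2 fold change -0.37, limma adjusted p = 0.541). It had 4242, 4339 and 2397 in POS-challenged and 4537, 4765 and 4413 in unchallenged libraries, with the low value in POS-challenged replicate 3.

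Within each group, most members were lowest in the same library. POS-challenged replicate 3 was the lowest POS-challenged library for 26 of 36 members (72.2%, against 43.1% of all genes), and unchallenged replicate 1 was the lowest unchallenged library for 26 (72.2%, against 37.6%). Both held for 22 members, 61.1%, against 22.2% of all genes. POS-challenged replicate 3 was the highest of its group for 4 members (11.1%, against 43.9% of all genes), and unchallenged replicate 1 for 7 (19.4%, against 40.5%). The mean of the members' log2 values, each centred on its gene's mean over the 6 libraries, was 0.08, 0.06 and -0.06 in POS-challenged replicates 1, 2 and 3, and -0.11, 0.04 and -0.007 in unchallenged replicates 1, 2 and 3. Without Acot2, whose high value lies in POS-challenged replicate 3, the means were 0.09, 0.09 and -0.12 in POS-challenged and -0.12, 0.05 and 0.002 in unchallenged libraries. The lowest values lay in POS-challenged replicate 3 and unchallenged replicate 1, which belong to different groups. Without POS-challenged replicate 3 the median log2 fold change of the members was 0.10 with 25 positive, and without unchallenged replicate 1 it was -0.001 with 18 positive. Without both unchallenged libraries with high interferon genes, which left 1 unchallenged library, it was -0.02 with 15 positive. RPE marker genes had their lowest mean log2 levels in the same libraries, at 10.39, 10.12 and 9.83 in POS-challenged replicates 1, 2 and 3 and 9.61, 10.05 and 10.15 in unchallenged replicates 1, 2 and 3. Single markers departed from this mean. Lrat and Mitf were lowest in POS-challenged replicate 2 of their group, and Pmel and Otx2 in unchallenged replicate 2. The mean of the Müller glia markers measured, Glul, Slc1a3 and Dkk3, was lowest in POS-challenged replicate 3 and unchallenged replicate 1 too. It was 11.4, 11.44 and 10.86 in POS-challenged and 10.81, 11.26 and 11.14 in unchallenged libraries. Aqp4, Gfap and Kcnj10 were not analysed here. The mean of the fibroblast markers was lower in POS-challenged replicate 3 than in POS-challenged replicates 1 and 2, at 11.47 and 11.38. Among unchallenged libraries this mean was highest in replicate 1, at 11.58, 11.04 and 11.33. Col1a1, Col1a2 and Lum each followed both parts of this pattern. Dcn was instead highest in POS-challenged replicate 3, at 468, 443.2 and 501.9 normalized counts in POS-challenged libraries. Pdgfra was lowest in unchallenged replicate 1, at 710, 813.5 and 1058 in unchallenged libraries. The macrophage mean was 6.47, 6.65 and 5.73 in POS-challenged and 6.64, 6.41 and 5.79 in unchallenged libraries, and so highest in unchallenged replicate 1 of its group. The endothelial mean was highest of each group in POS-challenged replicate 3 and unchallenged replicate 1. It was 5.98, 6.09 and 6.22 in POS-challenged and 6.51, 5.68 and 5.83 in unchallenged libraries. The part of these cell types in the members' values was not tested.

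**Figure D4:**
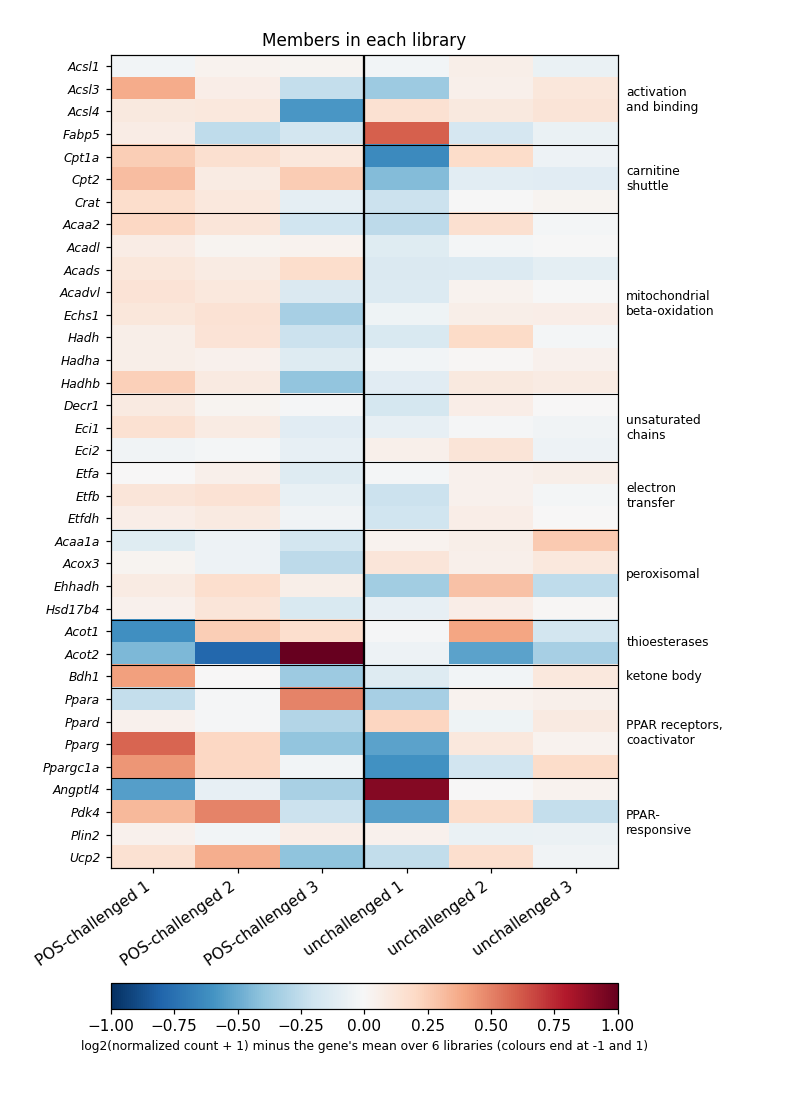
Log2(normalized count + 1) of the 36 members in each library, less the gene's mean over the 6 libraries, with POS-challenged libraries left of the line and genes grouped by role. Many members are at their lowest within a group in POS-challenged replicate 3 or unchallenged replicate 1, while Acot2 in POS-challenged replicate 3 and Angptl4 in unchallenged replicate 1 are high; the colour of Acot2 there is beyond the end of the scale.

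Other genes of the pathway were described from lists chosen by function. Of 30 other fatty acid oxidation genes 26 were measured and 0 passed in limma, with a median log2 fold change of 0.04. Mlycd, the malonyl-CoA decarboxylase that relieves the block on carnitine palmitoyltransferase, had 342, 334 and 424 normalized counts in POS-challenged and 284, 314 and 286 in unchallenged libraries, without overlap (log2 fold change 0.31, limma adjusted p = 0.411). Acad9, a dehydrogenase that also serves complex I assembly, had a log2 fold change of 0.21 (limma adjusted p = 0.459). Among 20 genes of uptake, activation and thioesterases 14 were measured and 0 passed, with a median of -0.07. The smallest p in that list belonged to Slc27a3, a fatty acid transport protein gene, and Acot9, a mitochondrial thioesterase gene, both lower without overlap (log2 fold changes -0.42 and -0.22, limma adjusted p = 0.356 and 0.411). Of 30 other PPAR-responsive genes 13 were measured and 0 passed, with a median of -0.01. Pdk1, a pyruvate dehydrogenase kinase that hypoxia also induces, had 4187, 4081 and 3631 in POS-challenged and 5168, 4589 and 4711 in unchallenged libraries (log2 fold change -0.28, limma adjusted p = 0.31), and the catalase gene Cat had a log2 fold change of -0.18. Of 13 lipid droplet genes 11 were measured and 0 passed, with a median of 0.01, and those with the smallest p were Fitm2, needed for droplet formation, and Lipe, the hormone-sensitive lipase (log2 fold changes 0.15 and 0.26). An unadjusted limma p under 0.05 was found for 1 oxidation gene (higher), 3 uptake and thioesterase genes (lower), 1 PPAR-responsive gene (lower), 0 ketone body genes and 0 lipid droplet genes, of 26, 14, 13, 10 and 11 tested, against 4.87% of all genes higher and 6.58% lower. The authors' deposited table called 0 genes of the oxidation, uptake, PPAR-responsive, ketone body and lipid droplet lists. Over all genes it called 0.871% higher and 1.68% lower. Without POS-challenged replicate 3 the medians were 0.09 for the oxidation genes, 0.03 for uptake and thioesterases, 0.07 for PPAR-responsive genes, 0.06 for ketone body genes and 0.07 for lipid droplet genes, and without unchallenged replicate 1 they were 0.004, -0.11, -0.05, -0.13 and -0.02 in the same order.

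Among PPAR partners, cofactors and upstream regulators, the authors' deposited table called 1 of the 22 measured, which was higher, against 0.871% of all genes higher. No gene of the other lists was called there. This list too was chosen with earlier results of these data known. Nrip1, a corepressor of nuclear receptors known to restrain oxidative genes in fat and muscle, had 972, 938 and 1188 normalized counts in POS-challenged libraries, against 599, 553 and 589 in unchallenged ones. The groups lay far apart, with an adjusted p of 1.43e-07 in the authors' deposited table, and a log2 fold change of 0.82 ± 0.11 (SE) that did not pass in limma (adjusted p = 0.0774). Of the 25 genes listed 22 were measured and 0 passed in limma, with a median log2 fold change of 0.10 and 15 positive. An unadjusted limma p under 0.05 was found for 4 of the 22, each with higher values in POS-challenged cells, against 4.87% of all genes in that direction. Ncoa3, a coactivator of nuclear receptors, was at 1324, 1239 and 1416 in POS-challenged and 1085, 1096 and 1105 in unchallenged libraries (log2 fold change 0.27, limma adjusted p = 0.283).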

How the data were processed

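RNA was measured in 3 POS-challenged and 3 unchallenged cultures, each as 1 poly(A) library sequenced over 2 lanes, per the labels (Illumina Genome Analyzer IIx). GSNAP, DESeq2 and mm10 are named in the submitters' processing notes, without versions, annotation, counting tool or use of strand. The deposited library columns are a signal the authors made, which per the values is a read count divided by a size factor (every value within 0.001 of a whole number of reads, size factors 0.901 to 1.10). The deposited table also holds the authors' log2 fold changes, p-values and Wald score, per the file headers. It lists genes with at least 87 reads over the libraries.

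Scaled values were tested on log2(value + 1) with limma 3.58.1 (R 4.3.3, trend, two-sided), genes with a mean of at least 10, a single group term and p-values adjusted by Benjamini-Hochberg over all 12556 genes, with calls at 0.05. Scripts were tested on simulated data. An exact permutation test of 3 against 3 cannot go below p = 0.1 and was not used. The members, lists and named-gene rule were chosen with earlier results of these data known. In the rule, values in every library go to members with an unadjusted p under 0.05, the 4 largest rises and falls, the PPAR and PPAR-responsive genes and the most abundant member per role, and other lists give their called genes or the 2 with the smallest p, except that some genes are not reported here. Every member in the table was planned to be described. Genes named outside this plan, after their values were seen, are Trib3, Ncoa3, Slc25a20, Cpt1c and individual cell type markers. The library values of Acot1 were added in the same way. Libraries of one group differed beyond sampling noise (chi-square per degree of freedom 8.58 to 61.8). Lengths and coding sequences came from GENCODE and coordinates and promoters from RefSeq (GRCm38, which mm10 denotes). Alternatives were other scalings, filters and pseudocounts, the replicate number as a block, libraries left out and the authors' table.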

Additional observations from a re-analysis of the deposited data

How the results depend on the processing

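No member passed the threshold under any alternative run (smallest adjusted p 0.069, Cpt2 in the authors' deposited table), and 23 of 36 members kept the sign of their fold change in all 6 fits that left out 1 library. Over all genes, 8 were higher and 4 lower. Leaving out 1 library gave 1 to 12 higher and 0 to 108 lower, with the 108 lower found without unchallenged replicate 2. The replicate block gave 1 and 0, leaving out unchallenged replicates 1 and 3 together 0 and 0, and the deposited table of the authors gave 105 and 203. Without unchallenged replicates 1 and 3 together the median log2 fold change was -0.023 for the members, 0.065 for the carnitine shuttle, -0.031 for auxiliary enzymes, -0.026 for electron transfer, 0.039 for PPAR receptors and coactivator and 0.052 for PPAR partners. Leaving out each library in turn gave medians from 0.101 to 0.487 for the carnitine shuttle, 0.002 to 0.099 for auxiliary enzymes and 0.066 to 0.134 for PPAR partners. With a minimum mean of 100 the peroxisomal median was -0.191, since Ehhadh was left out, and with quantile normalization that of PPAR partners was 0.141. The cause of the other shifts was not tested.

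The correlation of deviations between same-numbered libraries was -0.351, 0.172 and 0.173 for replicates 1, 2 and 3. Deviations from a mean of 3 libraries constrain one another, so these values cannot decide whether same-numbered cultures were paired. The labels do not say so, and the replicate block was run only as an alternative. The TMM scaling and the edgeR and DESeq2 fits that had been planned were not run, because the smallest value is 2 or 3 reads, not 1, in 4 of the 6 libraries. That alone does not show that the values are not counts, since every value was within 0.001 of a whole number of reads. The recovered reads were used for read totals and for the spread between replicates, and no count model was fitted to them here. The upper-quartile scaling was added after seeing the data. At 15.4 to 50.4 normalized counts per library, Acot1 and Ppara are limited by depth. Counts and intervals cover these libraries only.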
